A study of Mus musculus with 8 samples.

Results

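The genes described here are 46 genes of DNA replication and mitosis in a single-nucleus RNA data set of mouse visceral fat. They were chosen by symbol for these roles, with earlier results of these data known. All 46 symbols were found among the 56749 genes of the files, 24 of them acting in mitosis and 22 in DNA replication, repair and chromatin copying. The nuclei came from the visceral white fat of 8 mice, snap-frozen before use, were stained with the DNA dye DAPI, sorted by flow cytometry and counted with droplet chemistry that reads the 3' end of transcripts. Each captured RNA molecule was counted once through its unique molecular identifier (UMI). The title of the series concerns telomerase, fat cell formation and macrophages in obese mice.

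All mice carried an altered copy of the p21 locus (the gene Cdkn1a) beside a normal copy, so the controls carried it too. Mice of genotype p21+/mCherry, in which the locus holds a red fluorescent protein, ate a standard diet (mCherry SD, mice rep144 and rep146) or a high-fat diet (mCherry HFD, mice rep128 and rep129). The other groups ate the high-fat diet and were p21+/Tert (Tert HFD, mice rep134 and rep136) or p21+/TertCi (TertCi HFD, mice rep138 and rep140). Tert is the catalytic subunit of telomerase, placed under the p21 promoter per the design text, and the labels do not say what sets TertCi apart. Ages and sexes were not among the labels used here, and the design text speaks of the stromal fraction of the tissue where the sample labels name whole fat. The mice are named as in the labels, and values in pairs follow the order of the mice given here. With 2 mice a group, p-values measure only the spread between these samples.

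A cell that divides first copies its DNA and then separates the copies. Cyclins and their kinase start each step, a ring-shaped helicase of Mcm proteins opens the DNA for the polymerases, and kinesin motors, kinetochore proteins and condensins later part the chromosomes. The replication genes are switched on together by E2F transcription factors, and the mitosis genes somewhat later through a promoter element called the cell cycle genes homology region (CHR), which recruits the MuvB complex. The protein p21 inhibits cyclin-dependent kinases and keeps both sets of genes off. In lean fat few cells divide, whereas macrophages, progenitors and endothelial cells are known to multiply in the fat of obese mice.

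The promoters of the members carry these elements in the DNA itself, so they are shown first. RefSeq promoter windows (GRCm38.p6, 250 bases before to 50 after the transcription start) were at hand for 39 of the 46 members, and not for Ccna2, Zwilch, Smc4, Mcm4, Pole, Rad54b and Atad2. The CHR was searched as TTTGAA or TTCGAA, E2F sites as TTCCCGC, as TTGGCGC, as TTCGCGC or as TTGCCGC, and CCAAT boxes by their name, all on both strands. The stretches below are the 200 bases before the start of 3 mitosis members and 3 replication members, printed because they show both kinds of promoter side by side. Capitals mark each CHR or E2F match, so that a match on the opposite strand reads as TTCAAA for the CHR and GCGCCAA or the like for E2F, and runs of more than 7 capitals are overlapping E2F matches. Top2a, which untangles DNA (chr11:99024190-99024389, minus strand), Mki67, the standard proliferation marker (chr7:135716380-135716579, minus strand), and Kif11, a spindle motor (chr19:37376182-37376381, plus strand), carry CHR matches. Mcm6 (chr1:128359706-128359905, minus strand) and Mcm5 (chr8:75109309-75109508, plus strand), both subunits of the replicative helicase, and Rrm1, a subunit of ribonucleotide reductase (chr7:102441495-102441694, plus strand), carry E2F matches.
Top2a: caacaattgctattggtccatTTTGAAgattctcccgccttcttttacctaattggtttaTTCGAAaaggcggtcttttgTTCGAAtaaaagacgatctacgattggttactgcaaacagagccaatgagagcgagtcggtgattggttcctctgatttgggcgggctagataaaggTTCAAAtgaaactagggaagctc
Mki67: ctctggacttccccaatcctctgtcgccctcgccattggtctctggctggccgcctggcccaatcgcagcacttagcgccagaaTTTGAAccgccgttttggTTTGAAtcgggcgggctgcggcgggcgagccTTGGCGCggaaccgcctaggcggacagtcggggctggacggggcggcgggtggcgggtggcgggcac
Kif11: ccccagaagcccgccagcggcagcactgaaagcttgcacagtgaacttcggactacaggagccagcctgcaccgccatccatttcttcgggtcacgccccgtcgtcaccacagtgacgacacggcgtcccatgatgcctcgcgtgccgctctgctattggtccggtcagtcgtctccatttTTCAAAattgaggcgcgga
Mcm6: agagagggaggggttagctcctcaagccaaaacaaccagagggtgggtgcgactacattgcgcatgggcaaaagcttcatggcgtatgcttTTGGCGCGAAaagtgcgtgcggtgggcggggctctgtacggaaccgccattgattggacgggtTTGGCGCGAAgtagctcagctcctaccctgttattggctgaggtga
Mcm5: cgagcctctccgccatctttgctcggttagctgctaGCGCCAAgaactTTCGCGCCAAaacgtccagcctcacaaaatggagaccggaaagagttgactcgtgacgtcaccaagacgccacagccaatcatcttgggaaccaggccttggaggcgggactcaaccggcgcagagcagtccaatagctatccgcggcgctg
Rrm1: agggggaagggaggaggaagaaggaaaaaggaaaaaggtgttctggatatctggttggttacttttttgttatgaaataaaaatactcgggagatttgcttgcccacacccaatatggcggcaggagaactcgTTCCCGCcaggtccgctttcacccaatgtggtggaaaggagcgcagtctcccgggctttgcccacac
Among the whole windows of 300 bases, a CHR was found in 19 of 21 mitosis members (90.5%; not in Ccnb1 and Cenpe), in 1 of 18 replication and repair members (5.56%, Mcm2) and in 21.7% of the 27025 genes with a window. The E2F letters were found in 15 of 18 replication and repair members (83.3%; not Mcm2, Mcm10 and Rad54l), 5 of 21 mitosis members (23.8%; Ccnb1, Cdk1, Kif15, Ect2 and Mki67) and 10.9% of all genes. CCAAT boxes were found in 81.0% of mitosis members, 83.3% of replication and repair members and 41.1% of all genes. CHR and CCAAT occurred together in 71.4%, 5.56% and 8.61% of the same sets. A match is a run of letters and does not show that a factor binds there.

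The libraries held 23378488 to 139749876 UMIs each, and 30209 nuclei were kept, 1978 to 7433 per mouse, with thresholds of 987 to 4705 UMIs per nucleus that were set per library. At most 16 nucleus barcodes were shared by any pair of libraries, and 127 over all pairs. Nuclei were grouped into 36 clusters without the use of any cell cycle gene and named by markers. Of these clusters 13 carried markers of more than 1 lineage and are called mixed, and they held 62.3% and 53.4% of the mCherry SD nuclei against 19.4 to 33.3% in the other mice. An epithelium-like class, named by markers of epithelium and sperm duct, was found almost only in mCherry HFD mouse rep128 (322 nuclei) and mCherry SD mouse rep146 (64 nuclei). Some mixed clusters also came mostly from 1 of these mice. Mouse rep146 gave 344 of 350 nuclei of cluster 4, led by Lsamp and Myh11, and 38 of 42 of cluster 31, led by Grip1. Mouse rep128 gave 32 of 37 nuclei of cluster 34, led by Alb. Which tissue these nuclei came from was not tested. Levels are on a counts-per-million scale (CPM) of the UMIs summed over nuclei. Cdkn1a (p21), the gene of the altered locus, stood at 1.16 and 1.94 CPM in mCherry SD, 12.4 and 9.61 in mCherry HFD, 7.05 and 2.88 in Tert HFD and 5.44 and 3.70 in TertCi HFD. Tert stood at 3.56 and 3.71 CPM in mCherry SD, 3.82 and 3.88 in mCherry HFD, 2.35 and 1.44 in Tert HFD and 2.49 and 2.76 in TertCi HFD, no higher in the mice labelled p21+/Tert. The 3' end of the inserted construct is not given here, and the Cdkn1a UMIs may come from the unaltered copy, so neither level checks the labels. Per the labels, tissue was processed in batches of 2 in a randomised order. Which mice shared a batch is not given, so no batch could be compared, and batch and group cannot be told apart.

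In the summed RNA of all nuclei, the cell cycle genes stood highest in the mCherry mice on high-fat diet. The 46 members summed to 302 and 314 CPM in mCherry SD, 932 and 861 in mCherry HFD, 567 and 411 in Tert HFD and 362 and 358 in TertCi HFD. The mCherry HFD mice lay above all others and the mCherry SD mice below all others. The 24 mitosis members summed to 80.8 and 94.6 CPM in mCherry SD, 351 and 333 in mCherry HFD, 199 and 118 in Tert HFD and 109 and 108 in TertCi HFD. The 22 replication and repair members summed to 221 and 219 CPM in mCherry SD, 581 and 528 in mCherry HFD, 368 and 293 in Tert HFD and 253 and 249 in TertCi HFD, a smaller ratio between diets. In such sums, fewer cells of a type and less RNA per cell cannot be told apart. Beside this, macrophage-like nuclei, named by markers, made up 3.5% and 5.14% of nuclei in mCherry SD, 49.9% and 47.9% in mCherry HFD, 26.5% and 28.3% in Tert HFD and 19.8% and 15.1% in TertCi HFD.

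**Figure D1:**
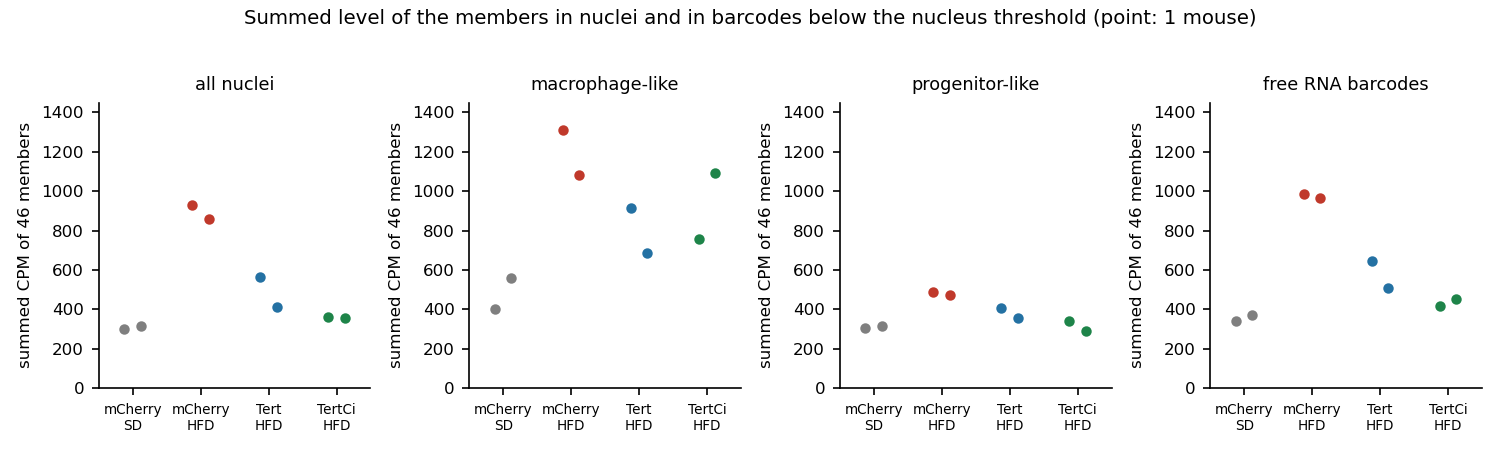
Summed level of the 46 members on the counts-per-million scale (CPM), 1 point per mouse and 1 panel per population of barcodes. The last panel holds barcodes of 10 UMIs to 0.3 of the library's nucleus threshold, called free RNA here. In all nuclei the mCherry HFD mice lie at 932 and 861 CPM and the mCherry SD mice at 302 and 314 CPM, and the free RNA follows the same order.

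The same order was found in barcodes of 10 UMIs to 0.3 of the library's nucleus threshold, called free RNA here. Whether some of them held nuclei was not tested. These barcodes held members at 343 and 373 CPM in mCherry SD, 988 and 966 in mCherry HFD, 644 and 511 in Tert HFD and 418 and 454 in TertCi HFD. The part of this RNA in the levels of nuclei was not tested.

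With high-fat diet in mCherry mice, 40 of the 46 members rose in all nuclei and none fell (edgeR's quasi-likelihood test, adjusted p under 0.05, Benjamini-Hochberg over all 21101 genes tested). Of all genes tested, 22.3% were called higher in this comparison. Since the members were chosen with earlier results of these data known, differences from all genes here and below are descriptions. The median log2 fold change of the members was 1.69, against 0.05 for all genes, and the 24 mitosis members had a median of 2.21 and the 22 replication and repair members of 1.62. Every role took part, with 6 of 6 helicase members, 7 of 7 kinetochore members, 4 of 4 of chromosome structure, 6 of 7 of DNA synthesis, 7 of 9 spindle members, 4 of 5 of homologous recombination, 3 of 4 cyclins and kinase and 3 of 4 of chromatin. The 6 members not called were Anln, Kif23, Pola1, Ccna2, Brca2 and Ezh2, with log2 fold changes of 0.16, 1.11, 0.30, 1.51, 0.47 and 0.16. With library totals in place of TMM scaling, the median of all genes in this comparison moved from 0.05 to 0.51 and the count of members to 45, so that changes below are relative to the TMM scale.

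On the same diet, the mice with Tert or TertCi in place of mCherry had lower levels. In Tert HFD, 16 members were lower than in mCherry HFD and none higher, with a median log2 fold change of -0.79, where 10.9% of all genes were called lower and the median of all genes was -0.05. In TertCi HFD, 37 members were lower and none higher, with a median of -1.36, where 19.4% of all genes were called lower and the median of all genes was -0.10. With library totals the all-gene medians were -0.39 and -0.58 and the counts 20 and 44. Without the mixed and epithelium-like clusters, an alternative added after seeing the data, 42 members were called with diet, 20 in Tert HFD and 40 in TertCi HFD. All 3 comparisons share the mCherry HFD mice, so a level that was high in these 2 mice enters each of them. Of the 16 calls in Tert HFD, only those of Brca1, Top2a, Cenpe and Mki67 held in most fits that each left out a mouse. Those of Hells, Kif11, Bub1b and Zwilch held in the fewest. The count for Tert HFD fell to 0 without mCherry HFD mouse rep128 or without Tert HFD mouse rep136, to 1 without mCherry HFD mouse rep129, to 5 without TertCi HFD mouse rep140 and to 8 without TertCi HFD mouse rep138. The count for TertCi HFD fell to 13 without TertCi HFD mouse rep138, 16 without mouse rep140 and 19 without mCherry HFD mouse rep128.

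Between Tert HFD and TertCi HFD no member was called, and neither was any other gene (0% of 21101). At an unadjusted p under 0.05, 17 of the 46 members differed, DESeq2 also called 0, and edgeR without a filter on low counts called 1. Top2a, for example, had a log2 fold change of Tert HFD over TertCi HFD of 1.23 ± 0.32 (SE, adjusted p = 0.378) with edgeR. The levels of the TertCi HFD mice lay below those of both Tert HFD mice for several members described below, but no difference passed the test across all genes.

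**Figure D2:**
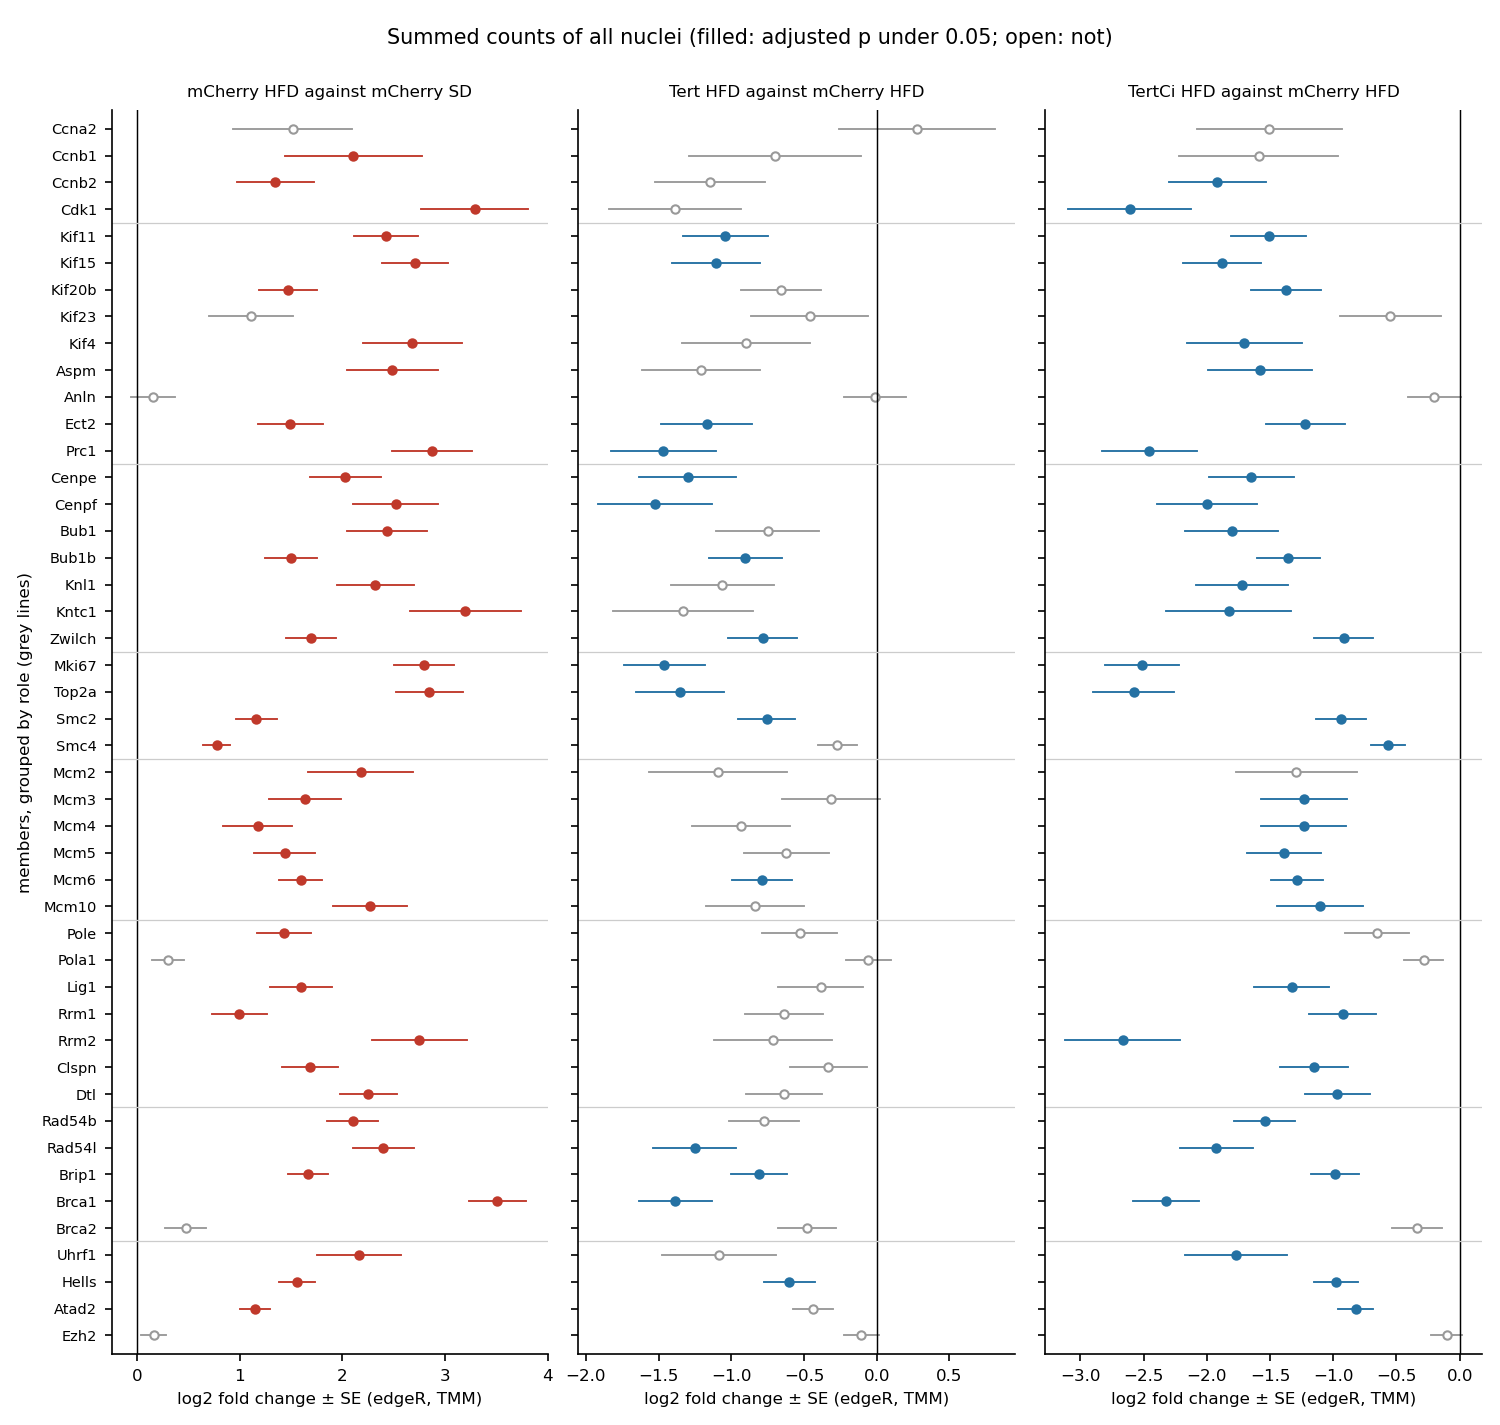
Log2 fold change ± SE of each of the 46 members in the summed counts of all nuclei (edgeR, TMM scale), in 3 comparisons, with grey lines between roles; filled points passed adjusted p 0.05 and open points did not. On high-fat diet 40 members are filled and to the right of 0, and against mCherry HFD 16 (Tert HFD) and 37 (TertCi HFD) are filled and to the left of 0.

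The cyclins and their kinase, which trigger entry into mitosis, were counted from few UMIs, at most 519 each. Ccnb2, a B-type cyclin, stood at 1.36 and 1.15 CPM in mCherry SD, 4.78 and 3.96 in mCherry HFD, 1.46 and 1.70 in Tert HFD and 0.973 and 0.673 in TertCi HFD. Cdk1, the kinase that B-type cyclins activate, stood at 0.194 and 0.330 CPM in mCherry SD, 3.36 and 3.96 in mCherry HFD, 1.55 and 0.524 in Tert HFD and 0.401 and 0.471 in TertCi HFD. For both genes the mCherry HFD mice lay above all others. The TertCi HFD mice lay below the mCherry SD mice for Ccnb2 and above them for Cdk1. Cdk1 rose by 3.29 ± 0.52 (SE, adjusted p = 0.00265) on the log2 scale with diet and was lower in TertCi HFD, at -2.61 ± 0.49 (SE, adjusted p = 0.00621), whereas in Tert HFD its value of -1.39 (adjusted p = 0.0623) did not pass. Ccnb2 rose by 1.35 ± 0.37 (SE, adjusted p = 0.0232) with diet and stood at -1.92 ± 0.38 (SE, adjusted p = 0.00802) in TertCi HFD. Ccnb1, the partner of Cdk1, passed with diet at 2.11 (adjusted p = 0.0369) but in 1 of 8 fits that each left out a mouse, and Ccna2, the cyclin of S phase, passed in no comparison.

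Of 9 motors and scaffolds of the spindle, 7 rose with diet, 4 were lower in Tert HFD and 7 in TertCi HFD. Among all genes tested, 22.3% rose with diet, 10.9% were lower in Tert HFD and 19.4% in TertCi HFD. Kif15, a kinesin that stabilises the spindle, stood at 1.88 and 2.93 CPM in mCherry SD, 22.9 and 20.3 in mCherry HFD, 11.1 and 4.72 in Tert HFD and 4.49 and 3.97 in TertCi HFD. Kif11, the kinesin that pushes the spindle poles apart, stood at 1.68 and 1.90 CPM in mCherry SD, 12.1 and 14.3 in mCherry HFD, 6.90 and 3.15 in Tert HFD and 3.32 and 3.36 in TertCi HFD. Prc1, which bundles microtubules at the middle of the spindle, stood at 0.582 and 1.28 CPM in mCherry SD, 9.56 and 9.45 in mCherry HFD, 3.27 and 2.10 in Tert HFD and 1.52 and 0.942 in TertCi HFD. For Kif15 the groups did not overlap, in the order mCherry SD, TertCi HFD, Tert HFD and mCherry HFD, while for Kif11 the Tert HFD and TertCi HFD mice overlapped. All 3 rose with diet, by 2.71, 2.42 and 2.87 on the log2 scale, and all 3 were lower in both other genotypes, Prc1 at -1.47 ± 0.36 (SE, adjusted p = 0.0281) in Tert HFD and -2.45 ± 0.37 (SE, adjusted p = 0.00282) in TertCi HFD. The Tert HFD calls of Kif15, Kif11 and Prc1 were lost in most fits that each left out a mouse. Ect2, which activates RhoA for the cleavage furrow, stood at 2.20 and 3.54 CPM in mCherry SD, 12.4 and 9.77 in mCherry HFD, 5.18 and 2.49 in Tert HFD and 3.44 and 3.43 in TertCi HFD, with overlap of all groups other than mCherry HFD. Ect2 rose with diet by 1.49 (adjusted p = 0.00856) and was lower, at -1.17 (adjusted p = 0.0358) in Tert HFD and -1.22 (adjusted p = 0.0198) in TertCi HFD. Anln, the anillin scaffold of the cleavage furrow, behaved otherwise, at 13.3 and 11.1 CPM in mCherry SD, 18.1 and 19.5 in mCherry HFD, 17.2 and 12.1 in Tert HFD and 13.6 and 10.0 in TertCi HFD, and passed in no comparison. Kif20b, Kif4 and Aspm, 2 motors and a spindle pole protein, rose with diet by 1.47, 2.68 and 2.49 and were lower in TertCi HFD, at -1.37, -1.70 and -1.58, but did not pass in Tert HFD.

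All 7 kinetochore and checkpoint members rose with diet and all 7 were lower in TertCi HFD, where 22.3% of all genes rose and 19.4% were lower. Knl1, the scaffold that carries the spindle checkpoint, stood at 2.20 and 3.09 CPM in mCherry SD, 19.8 and 16.5 in mCherry HFD, 10.2 and 3.54 in Tert HFD and 3.66 and 4.30 in TertCi HFD. Zwilch, part of the complex that brings dynein to kinetochores, stood at 4.14 and 5.94 CPM in mCherry SD, 24.8 and 19.9 in mCherry HFD, 13.1 and 7.34 in Tert HFD and 8.59 and 8.47 in TertCi HFD. In both, mCherry SD was lowest, mCherry HFD highest, and the Tert HFD pair spanned the TertCi HFD pair. Cenpe, a motor of the kinetochore, stood at 2.01 and 2.14 CPM in mCherry SD, 11.6 and 11.7 in mCherry HFD, 4.76 and 2.62 in Tert HFD and 2.03 and 3.36 in TertCi HFD. Cenpf, a large protein of the outer kinetochore, stood at 0.582 and 1.11 CPM in mCherry SD, 6.75 and 6.78 in mCherry HFD, 2.55 and 1.05 in Tert HFD and 1.23 and 1.21 in TertCi HFD. Bub1b, the checkpoint kinase-like protein BubR1, stood at 2.78 and 2.72 CPM in mCherry SD, 10.5 and 10.8 in mCherry HFD, 5.41 and 3.54 in Tert HFD and 3.44 and 2.56 in TertCi HFD. The mCherry HFD values of these 3 were close to each other and far above the rest. Cenpf was lower in Tert HFD, at -1.52 ± 0.39 (SE, adjusted p = 0.0319), with Cenpe at -1.30 (adjusted p = 0.032), Bub1b at -0.90 (adjusted p = 0.039) and Zwilch at -0.79 (adjusted p = 0.049). Of these calls, only that of Cenpe held in most fits that each left out a mouse. Bub1 and Kntc1, a checkpoint kinase and a partner of Zwilch, rose with diet by 2.44 and 3.20 and did not pass in Tert HFD.

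The 4 members of chromosome structure split into 2 with large changes and 2 with smaller ones. Mki67 stood at 1.62 and 2.64 CPM in mCherry SD, 20.0 and 20.8 in mCherry HFD, 7.68 and 3.93 in Tert HFD and 2.83 and 2.29 in TertCi HFD. Top2a stood at 2.01 and 2.72 CPM in mCherry SD, 27.0 and 19.8 in mCherry HFD, 10.1 and 4.33 in Tert HFD and 2.89 and 2.76 in TertCi HFD. Both Tert HFD mice lay above both TertCi HFD mice for these genes, and the TertCi HFD mice overlapped mCherry SD for Mki67 and lay just above it for Top2a. Mki67 rose with diet by 2.80 ± 0.30 (SE, adjusted p = 0.000506) and was lower, at -1.46 ± 0.28 (SE, adjusted p = 0.0128) in Tert HFD and -2.51 ± 0.29 (SE, adjusted p = 0.000906) in TertCi HFD. Top2a rose by 2.85 ± 0.33 (SE, adjusted p = 0.000683) and was lower, at -1.35 ± 0.30 (SE, adjusted p = 0.0214) and -2.58 ± 0.32 (SE, adjusted p = 0.00118). Smc2 and Smc4 are the core of condensin, which compacts mitotic chromosomes. Smc2 stood at 6.15 and 8.61 CPM in mCherry SD, 23.6 and 21.6 in mCherry HFD, 12.8 and 8.26 in Tert HFD and 8.90 and 8.07 in TertCi HFD, and Smc4 at 29.9 and 32.0 CPM in mCherry SD, 69.6 and 75.8 in mCherry HFD, 54.4 and 40.4 in Tert HFD and 34.8 and 35.6 in TertCi HFD. The diet change of Smc4, 0.77, was the smallest among the 40 called members, and Smc4 did not pass in Tert HFD.

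**Figure D3:**
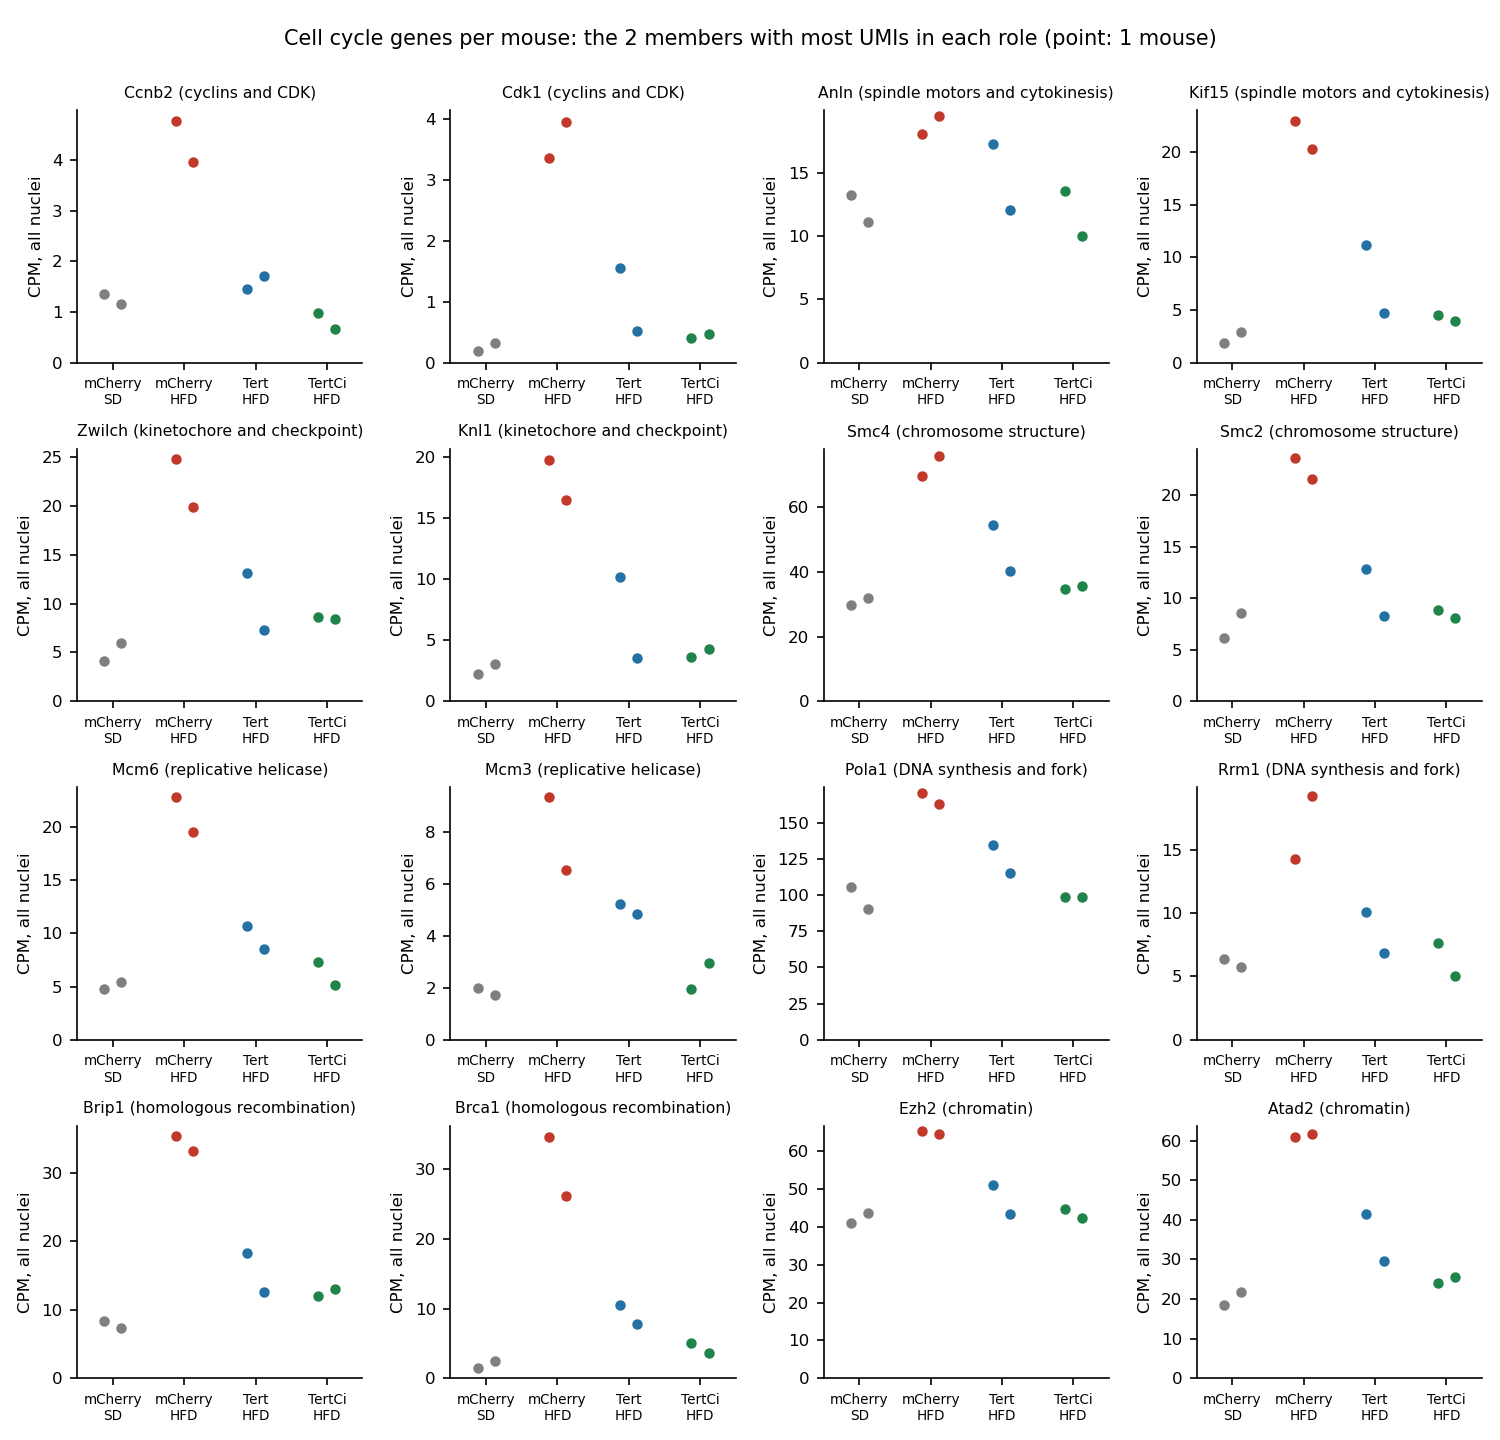
CPM in all nuclei of the 2 members with most UMIs in each of 8 roles, 1 point per mouse, each panel with an axis from 0. The mCherry HFD mice lie above all others in each panel shown, by a wide gap for Kif15, Brca1 and Cdk1 and a narrow gap for Anln, Pola1 and Ezh2.

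Genes of the replicative helicase rose together with diet, all 6 of them, by 1.17 to 2.27 on the log2 scale. The shares of all genes were 22.3% higher with diet, 10.9% lower in Tert HFD and 19.4% lower in TertCi HFD. Mcm6 stood at 4.79 and 5.44 CPM in mCherry SD, 22.8 and 19.5 in mCherry HFD, 10.7 and 8.52 in Tert HFD and 7.33 and 5.18 in TertCi HFD. Mcm3 stood at 2.01 and 1.73 CPM in mCherry SD, 9.35 and 6.54 in mCherry HFD, 5.21 and 4.85 in Tert HFD and 1.98 and 2.96 in TertCi HFD. For both genes the TertCi HFD mice overlapped the mCherry SD mice, and the Tert HFD mice lay between these and mCherry HFD. Mcm6 was the only helicase member called in Tert HFD, at -0.79 ± 0.20 (SE, adjusted p = 0.0327), and 5 of 6 were lower in TertCi HFD, where Mcm2 did not pass with -1.29 (adjusted p = 0.0682). Mcm10, which helps to start the helicase, rose by 2.27 (adjusted p = 0.00269) with diet.

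Of the 7 members of DNA synthesis, 6 rose with diet, 5 were lower in TertCi HFD and none was called in Tert HFD. All genes tested gave shares of 22.3% higher with diet, 19.4% lower in TertCi HFD and 10.9% lower in Tert HFD. Rrm1 and Rrm2 form the enzyme that makes deoxynucleotides. Rrm1 stood at 6.41 and 5.77 CPM in mCherry SD, 14.3 and 19.2 in mCherry HFD, 10.1 and 6.82 in Tert HFD and 7.64 and 5.04 in TertCi HFD. Rrm2, its subunit made in S phase, stood at 0.259 and 0.289 CPM in mCherry SD, 2.24 and 2.91 in mCherry HFD, 1.49 and 0.918 in Tert HFD and 0.258 and 0.336 in TertCi HFD. Rrm2 rose by 2.75 with diet and stood at -2.67 in TertCi HFD, whose pair overlapped mCherry SD, while Rrm1 rose by 1.00. Dtl, the receptor of a ubiquitin ligase that destroys Cdt1 and p21, stood at 2.59 and 2.43 CPM in mCherry SD, 17.1 and 15.7 in mCherry HFD, 8.68 and 7.87 in Tert HFD and 5.07 and 7.06 in TertCi HFD, with no overlap between groups. Pola1, the catalytic subunit of the polymerase that starts each strand, stood at 105 and 90.3 CPM in mCherry SD, 170.5 and 163 in mCherry HFD, 134.3 and 116 in Tert HFD and 98.5 and 98.7 in TertCi HFD, and passed in no comparison. Pola1 alone gave 27482 of the 124826 member UMIs, and with Ezh2, Smc4 and Atad2 it gave 46.2%. The remaining members Pole, Lig1 and Clspn, a polymerase, a ligase and a checkpoint mediator, rose with diet by 1.43, 1.60 and 1.68.

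Homologous recombination, which repairs broken replication forks, held the member with the largest diet change. Brca1 stood at 1.42 and 2.43 CPM in mCherry SD, 34.6 and 26.2 in mCherry HFD, 10.5 and 7.74 in Tert HFD and 5.04 and 3.70 in TertCi HFD. Brip1, the helicase that binds Brca1, stood at 8.41 and 7.34 CPM in mCherry SD, 35.4 and 33.2 in mCherry HFD, 18.3 and 12.6 in Tert HFD and 12.0 and 13 in TertCi HFD. Brca1 rose by 3.51 ± 0.28 (SE, adjusted p = 0.000161) with diet and was lower, at -1.38 ± 0.25 (SE, adjusted p = 0.0108) in Tert HFD and -2.32 ± 0.26 (SE, adjusted p = 0.000773) in TertCi HFD, and its 4 pairs did not overlap. Rad54l, a motor of strand exchange, stood at 1.29 and 1.61 CPM in mCherry SD, 11.6 and 9.45 in mCherry HFD, 3.81 and 3.15 in Tert HFD and 1.75 and 2.29 in TertCi HFD. Rad54b, a relative of it, stood at 1.94 and 2.18 CPM in mCherry SD, 13.4 and 10.8 in mCherry HFD, 6.42 and 4.72 in Tert HFD and 2.86 and 3.16 in TertCi HFD. For both, the groups lay in the same order as for Brca1, without overlap, and Rad54l was lower in Tert HFD, at -1.25 (adjusted p = 0.0225), where Rad54b did not pass with -0.78 (adjusted p = 0.0519). Brca2, which loads the recombinase on DNA, ranged only from 7.64 to 19.0 CPM over the 8 mice and passed in no comparison.

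Among the chromatin members, Hells, a remodeller needed for DNA methylation, stood at 5.63 and 7.58 CPM in mCherry SD, 27.5 and 25.8 in mCherry HFD, 15.5 and 12.1 in Tert HFD and 9.99 and 9.48 in TertCi HFD. Atad2, a bromodomain ATPase, stood at 18.5 and 21.7 CPM in mCherry SD, 60.8 and 61.5 in mCherry HFD, 41.5 and 29.6 in Tert HFD and 24.1 and 25.6 in TertCi HFD. Both kept the order of mCherry SD, TertCi HFD, Tert HFD and mCherry HFD without overlap. Hells was lower in both other genotypes, at -0.60 (adjusted p = 0.0446) in Tert HFD and -0.98 (adjusted p = 0.00517) in TertCi HFD, and Atad2 passed in TertCi HFD, at -0.82 (adjusted p = 0.0044). The Tert HFD call of Hells was lost in most fits that each left out a mouse. Uhrf1, which recognises hemimethylated DNA, rose by 2.16 (adjusted p = 0.0056) with diet. Ezh2, the methyltransferase of Polycomb complex PRC2, stood at 41.0 and 43.7 CPM in mCherry SD, 65.5 and 64.5 in mCherry HFD, 51.1 and 43.4 in Tert HFD and 44.8 and 42.4 in TertCi HFD, and passed in no comparison.

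Members differed in how often they were found in the same nucleus as other members. Each nucleus was thinned to 1000 UMIs, and the share of a member's UMIs in nuclei that also held at least 4 other members was counted. The share was 65.6% for Kif4, 63.5% for Knl1, 59.2% for Bub1, 58.2% for Top2a and 55.7% for Kif11. At the other end stood Smc4 with 9.6%, Ezh2 with 15.2%, Brca2 with 16.5% and Pola1 with 16.6%, so most of their UMIs lay in nuclei with few other members. Of nuclei with at least 4 other members, 9.96% held a Kif4 UMI, against 0.150% of the rest, a ratio of 66.6, while for Smc4 the shares were 17.2% and 4.60%, a ratio of 3.74. Of the 6 members not called with diet, Anln (23.9%), Brca2, Ezh2 and Pola1 lay in the lower part of this range, and Kif23 (34.8%) and Ccna2 (28.6%) in the middle. Called members lay in the lower part too, among them Smc4, Rrm1 (18.0%), Mcm6 (18.7%) and Atad2 (23.6%). The share thus did not set the uncalled members apart.

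**Figure D4:**
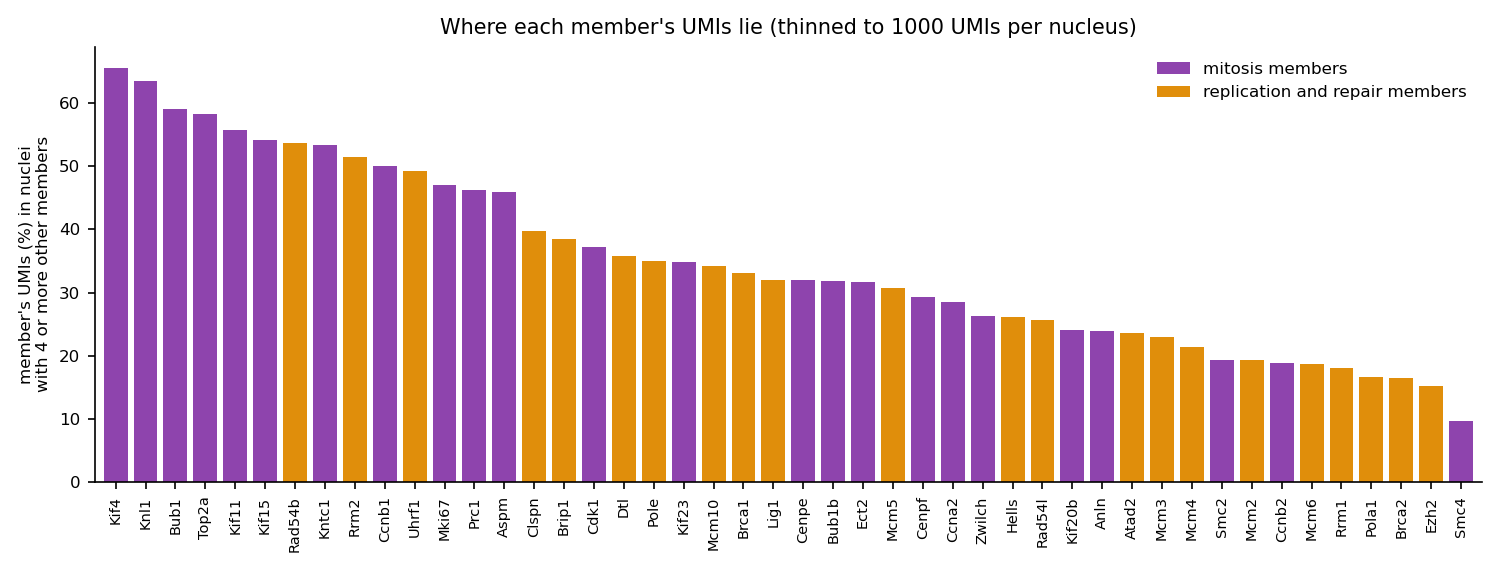
Share of each member's UMIs (%, after thinning to 1000 UMIs per nucleus) that lay in nuclei holding UMIs of at least 4 other members, over all libraries, with mitosis members and replication and repair members in 2 colours. Kif4 stands highest at 65.6% and Smc4 lowest at 9.6%.

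A nucleus with UMIs of at least 4 different members after thinning to 1000 UMIs is called cycling here. By this rule 783 of 30172 nuclei (2.60%) cycled, and 37 nuclei below 1000 UMIs, all of Tert HFD mouse rep136, were left out. The count of members per nucleus has no gap at this limit, with 416 nuclei at exactly 3 members, 236 at 4 and 547 at 5 or more, up to 18. The share of cycling nuclei was 0.157 and 0.433% in mCherry SD, 5.62 and 4.73 in mCherry HFD, 2.53 and 1.40 in Tert HFD and 0.964 and 1.26 in TertCi HFD. Exact 95% binomial intervals (Clopper-Pearson), which cover counting error only, ran from 0.0428 to 0.402% and 0.231 to 0.740% in mCherry SD to 5.11 to 6.17% and 3.98 to 5.57% in mCherry HFD. The mCherry HFD mice lay above all others and the mCherry SD mice below, with the Tert HFD mice above the TertCi HFD mice, and the mean of mCherry HFD was 4.88 percentage points above that of mCherry SD. A share of this kind is a score over the members and was given no test. The Tert HFD and TertCi HFD mice overlapped without the mixed and epithelium-like clusters (2.60 and 1.61% against 1.15 and 1.67%), without the 4 members with most UMIs (1.55 and 0.636% against 0.596 and 0.657%), above the highest UMI threshold of the libraries (2.52 and 0.694% against 0.920 and 0.755%) and with every barcode of at least 1000 UMIs (2.09 and 1.24% against 0.860 and 1.73%). Without thinning the shares were 6.83 and 11.9%, 36.3 and 19.1%, 25.7 and 3.77%, and 7.55 and 12.3%, in libraries whose median depth ranged from 1682 to 7133.5 UMIs per nucleus. Cycling nuclei had a higher median depth than the others in both mCherry HFD mice (7477.5 against 7013 and 3513.5 against 2951.5 UMIs), in mCherry SD mouse rep146 (6694 against 5625.5) and narrowly in Tert HFD mouse rep134 (7138 against 7133.5), and a lower one in the other 4 mice.

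**Figure D5:**
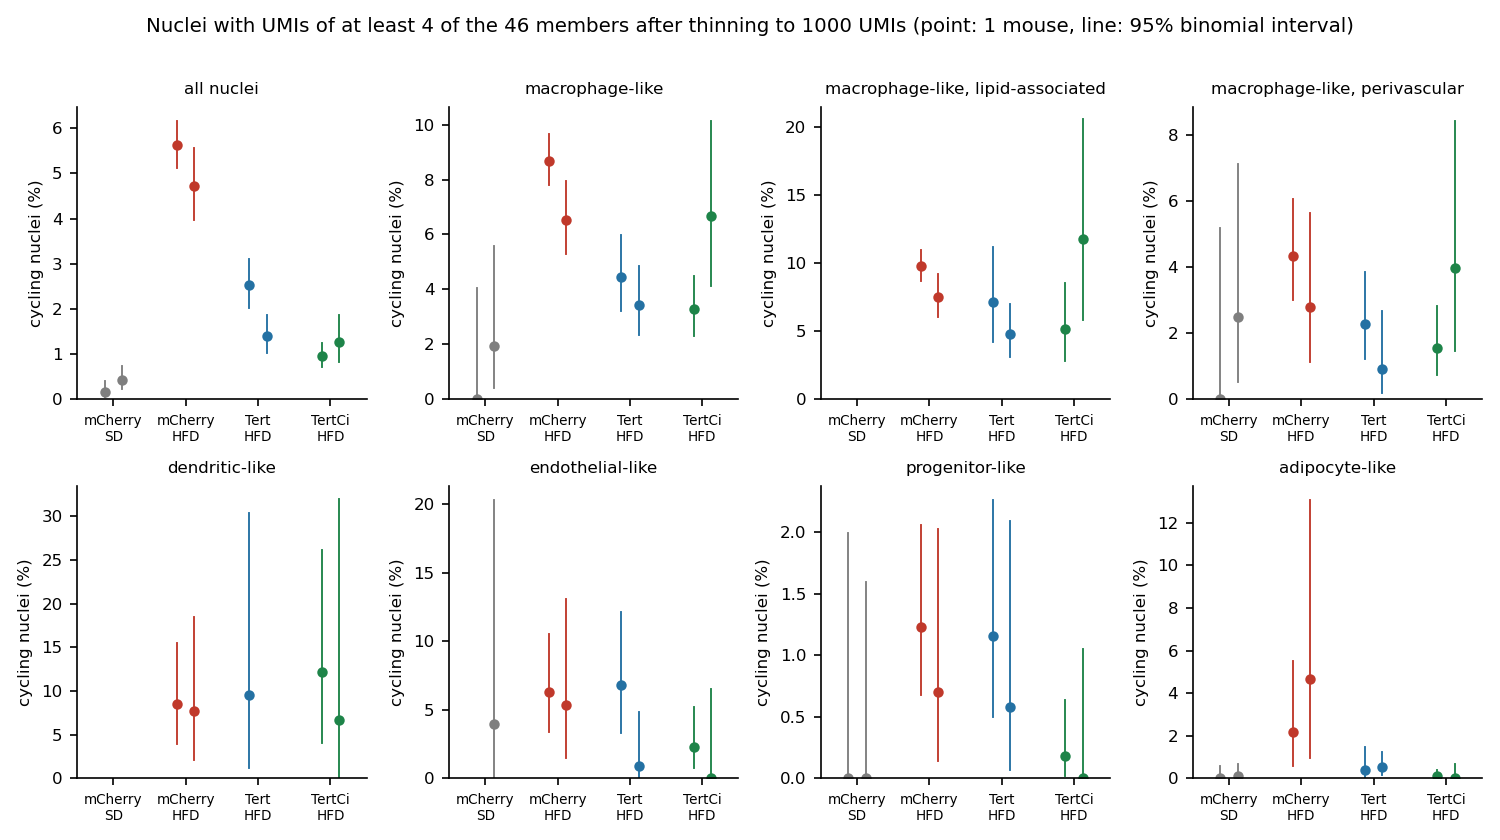
Share of nuclei (%) with UMIs of at least 4 of the 46 members after thinning to 1000 UMIs, 1 point per mouse with its exact 95% binomial interval, in all nuclei and 7 classes; mice with fewer than 15 nuclei of a class are left out, and each panel has its own axis. In all nuclei both mCherry HFD mice (5.62 and 4.73%) lie above all others, whereas among macrophage-like nuclei TertCi HFD mouse rep140 (6.69%) lies within the mCherry HFD range.

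Pooled over mice, of the 783 cycling nuclei 543 (69.3%) were macrophage-like, 123 (15.7%) lay in mixed clusters, 34 were endothelial-like, 29 progenitor-like, 21 dendritic-like, 17 adipocyte-like and 10 mural-like. Macrophage-like nuclei were 0 of 4 and 3 of 13 cycling nuclei in mCherry SD, 322 (77.0%) and 90 (66.2%) of those in the mCherry HFD mice, 41 of 88 and 30 of 44 in Tert HFD, and 37 of 55 and 20 of 25 in TertCi HFD. As a share of the class, pooled over mice, cycling nuclei made up 8.33% of dendritic-like, 6.35% of macrophage-like, 4.00% of endothelial-like, 2.31% of mural-like, 0.646% of progenitor-like and 0.312% of adipocyte-like nuclei. The classes come from the mice in different proportions, so these pooled shares give no order. In the mCherry HFD mice 2.19 and 4.69% of adipocyte-like nuclei cycled (4 of 183 and 3 of 64), and 1.23 and 0.698% of progenitor-like nuclei (14 of 1137 and 3 of 430). Of 653 mesothelial-like nuclei, the lining of the fat pad, none cycled, and the exact interval of the mouse with most of them (152) allows a share of up to 2.40%. In the summed counts of this class, 1 of 8 members tested was called higher with diet, where 242 of 9086 genes were (edgeR). In mural-like nuclei 0 of 4 members tested were called in Tert HFD or TertCi HFD, where 115 and 458 of 5121 genes were. Median depths per mouse were 1719 to 6381 UMIs in mesothelial-like, 2068 to 13232 in adipocyte-like and 1367 to 6366 in macrophage-like nuclei. The sort gated on scatter and DAPI signal to remove clumps, and whether its gate kept all nuclei with copied DNA is not given in the sources used here. Among the 543 cycling macrophage-like nuclei, all carried at least 3 macrophage markers. At least 3 progenitor markers were found in 64.6% of them, adipocyte markers in 54.7% and endothelial markers in 1.84%, against 59.1, 53.1 and 0.824% of the other macrophage-like nuclei. At least 3 macrophage markers were found in 88.2% of the 17 cycling adipocyte-like nuclei against 70.1% of the others, and in 82.8% of the 29 cycling progenitor-like nuclei against 66.3% of the others, and their part in these shares was not tested. Markers were counted without thinning, so such shares can rise with depth. Summed, the macrophage markers stood at 5343 against 3265 CPM in adipocyte-like nuclei and 1493 against 1374 CPM in progenitor-like nuclei. Among barcodes removed as likely doublets, 33 of 1211 (2.73%) would have counted as cycling.

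Within macrophage-like nuclei the share of cycling nuclei was 0 and 1.95% in mCherry SD, 8.69 and 6.53 in mCherry HFD, 4.44 and 3.43 in Tert HFD and 3.27 and 6.69 in TertCi HFD. In mCherry SD these were 0 of 89 nuclei, and 3 of 154. The intervals of the mCherry HFD mice were 7.80 to 9.64% and 5.28 to 7.96%, and those of the mCherry SD mice 0 to 4.06% (rep144) and 0.404 to 5.59% (rep146). The interval of mCherry HFD mouse rep128 lay above both of these, and that of mouse rep129 lay above that of rep144 and overlapped that of rep146. Both Tert HFD mice lay below both mCherry HFD mice, while TertCi HFD mouse rep140 lay between them. The class is not made of the same clusters in each group. In mCherry SD, 69 of 89 and 119 of 154 macrophage-like nuclei lay in cluster 24, led by the perivascular genes F13a1 and Cd163, whereas in mCherry HFD most lay in clusters 12 and 13, led by St18 and by Gpnmb.

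Macrophage-like clusters were split by marker genes into lipid-associated macrophages, which gather around dying fat cells, perivascular macrophages and others. Over all mice 426 of 5064 lipid-associated nuclei (8.41%), 75 of 2889 perivascular nuclei (2.60%) and 42 of 602 others (6.98%) cycled, a description without a test or an order, since the mice hold these in different proportions. Within mice the others stood at 10.5 and 0% in mCherry HFD, 9.65 and 6.67% in Tert HFD and 6.05 and 6.35% in TertCi HFD, above the lipid-associated nuclei in 4 of these 6 mice. The mCherry HFD mice held 278 and 83 of the 426. Lipid-associated nuclei were 17 of 41 and 24 of 30 cycling macrophage-like nuclei in Tert HFD, 14 of 37 and 10 of 20 in TertCi HFD, and 0 of 3 in mCherry SD. Within the lipid-associated clusters the share was 9.77 and 7.5% in mCherry HFD, 7.11 and 4.77% in Tert HFD and 5.17 and 11.8% in TertCi HFD, with 8 nuclei in each mCherry SD mouse. Cluster 13, led by Gpnmb, Fat3 and Mmp12, held 268 of the cycling nuclei, at 15.5% of its nuclei, and 14.7 and 17.8% in the mCherry HFD mice. Tert HFD mouse rep134 had 13 of 75 cycling nuclei in this cluster (17.3%) and TertCi HFD mouse rep138 had 7 of 26 (26.9%), near or above the mCherry HFD values with wide intervals. In clusters 11 and 12, also lipid-associated, 5.71 and 4.17% cycled over all mice. Cluster 11 had a median of 2199.5 UMIs per nucleus, against 5512 and 6155 in clusters 12 and 13. It held 502 of the 520 lipid-associated nuclei of Tert HFD mouse rep136 and 23 of the 24 that cycled. It also held 356 nuclei of mCherry HFD mouse rep129. These mice had the lowest median depths (1682 and 2966 UMIs), and the part of depth in this naming was not tested. All 10 lipid-associated cycling nuclei of TertCi HFD mouse rep140 lay in cluster 11, as 10 of 65 (15.4%), against 5 of 173 (2.89%) in mouse rep138. In the perivascular clusters the share was 0 and 2.50% in mCherry SD, 4.36 and 2.79% in mCherry HFD, 2.28 and 0.920% in Tert HFD and 1.55 and 3.97% in TertCi HFD. The mCherry HFD mice overlapped the TertCi HFD mice and lay above the mCherry SD and Tert HFD mice. The gap to mCherry SD was narrow and rests on few nuclei (7 of 251 in rep129, 3 of 120 in rep146). Different clusters hold these nuclei, with cluster 23 making up 715 of 757 and 234 of 251 in mCherry HFD and cluster 24 most elsewhere. Within cluster 24 alone the share was 0 and 2.52% in mCherry SD, 31.0 and 11.8% in mCherry HFD (13 of 42 and 2 of 17), 2.01 and 0.929% in Tert HFD and 1.58 and 4.00% in TertCi HFD, so there the mCherry HFD mice lay above all others on few nuclei.

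Summed per mouse over macrophage-like nuclei, the members stood at 403 and 558 CPM in mCherry SD, 1309.5 and 1082 in mCherry HFD, 913 and 687 in Tert HFD and 758 and 1094 in TertCi HFD. The mCherry SD pair lay below all others, and TertCi HFD mouse rep140 reached into the mCherry HFD range. Of the 46 members, 43 passed the filter on low counts here (not Ccna2, Ccnb1 and Rrm2). With diet, 20 rose and none fell, where 11.4% of the 13506 genes tested were called higher. In Tert HFD 7 were lower, where 11.9% of genes were called lower, and in TertCi HFD 6, where 15.7% were, so these last shares are near the background. No member and no other gene was called between Tert HFD and TertCi HFD (0%, edgeR). At an unadjusted p under 0.05 there was 1 member, and DESeq2 called 0. DESeq2 called 13, 1 and 2 members in the same 3 comparisons. The diet count fell to 3 without mCherry SD mouse rep146, 6 without mCherry SD mouse rep144 and 11 without mCherry HFD mouse rep128. The Tert HFD count fell to 0 without mCherry HFD mouse rep128, and the TertCi HFD count to 0 without that mouse or without TertCi HFD mouse rep138. The 12 adipocyte markers summed to 1818 and 2669 CPM in these nuclei in mCherry SD, 1000.4 and 1199 in mCherry HFD, 1518 and 1932 in Tert HFD and 2175 and 1733 in TertCi HFD, with no marker at 0 in every mouse, and their part was not tested.

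Brca1 had the smallest adjusted p of the members within macrophage-like nuclei too. Brca1 stood there at 0 and 4.15 CPM in mCherry SD, 58.9 and 41.2 in mCherry HFD, 22 and 17.5 in Tert HFD and 16.6 and 20.5 in TertCi HFD. Top2a stood at 6.72 and 2.76 CPM in mCherry SD, 43.7 and 27.4 in mCherry HFD, 17.2 and 9.08 in Tert HFD and 9.97 and 17.1 in TertCi HFD. Mki67 stood at 0 and 5.53 CPM in mCherry SD, 31.9 and 31.0 in mCherry HFD, 17.4 and 8.38 in Tert HFD and 13.8 and 18.0 in TertCi HFD. The mCherry HFD mice lay above all others for these genes and the mCherry SD mice below. Brca1 rose by 3.98 ± 0.57 (SE, adjusted p = 0.000503) with diet and was lower, at -1.21 ± 0.28 (SE, adjusted p = 0.011) in Tert HFD and -1.35 ± 0.29 (SE, adjusted p = 0.00566) in TertCi HFD (edgeR). Top2a rose by 3.05 ± 0.65 (SE, adjusted p = 0.00597) and was lower, at -1.24 (adjusted p = 0.0253) and -1.40 (adjusted p = 0.0148). Mki67 rose by 2.90 ± 0.62 (SE, adjusted p = 0.0061) and was lower in Tert HFD, at -1.07 (adjusted p = 0.0395), while in TertCi HFD its value was -0.91 (adjusted p = 0.0661).

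Several members had no UMI in either mCherry SD library of this class, so their fold is a lower bound, taken against 3 UMIs over the group. Prc1 stood at 0 and 0 CPM in mCherry SD, 13 and 12.6 in mCherry HFD, 6.21 and 3.49 in Tert HFD and 3.40 and 4.28 in TertCi HFD, at least 4.40-fold higher in mCherry HFD than in mCherry SD. Pole stood at 0 and 0 CPM in mCherry SD, 18.9 and 12.6 in mCherry HFD, 8.60 and 7.68 in Tert HFD and 9.34 and 11.1 in TertCi HFD, at least 6.14-fold higher. Ccnb2 stood at 0 and 0 CPM in mCherry SD, 6.57 and 4.27 in mCherry HFD, 1.27 and 1.40 in Tert HFD and 1.49 and 0.855 in TertCi HFD, at least 2.13-fold higher. These 3 were called with diet, and Prc1 and Ccnb2 also in both other genotypes, where Ccnb2 was lower, at -2.01 in Tert HFD and -1.94 in TertCi HFD and Prc1 at -1.16 and -1.68. The Tert HFD call of Prc1 held in 0 of 8 fits that each left out a mouse. Cdk1 was at least 1.55-fold higher without passing the test (adjusted p = 0.0922, edgeR). The median log2 fold change of the 43 members with diet was 1.82, or 1.79 with these 4 genes at their bound.

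Other macrophage-like calls came from both phases. Kif11 stood at 0 and 1.38 CPM in mCherry SD, 19.7 and 18.7 in mCherry HFD, 10.4 and 4.19 in Tert HFD and 8.49 and 17.1 in TertCi HFD. Bub1b stood at 0 and 1.38 CPM in mCherry SD, 15.7 and 16.0 in mCherry HFD, 11.3 and 6.98 in Tert HFD and 6.15 and 17.1 in TertCi HFD. Kif15 stood at 0 and 6.91 CPM in mCherry SD, 36.5 and 31.3 in mCherry HFD, 21.7 and 10.5 in Tert HFD and 15.1 and 30.8 in TertCi HFD. In all 3, TertCi HFD mouse rep140 stood above mouse rep138, just below the mCherry HFD mice for Kif11 and Kif15 and above them for Bub1b. They rose with diet by 4.15, 3.87 and 2.70 and passed in neither other genotype. Dtl stood at 0 and 2.76 CPM in mCherry SD, 25.4 and 18.9 in mCherry HFD, 10.8 and 11.2 in Tert HFD and 9.76 and 18.0 in TertCi HFD. Mcm6 stood at 3.36 and 8.29 CPM in mCherry SD, 32.7 and 23.8 in mCherry HFD, 18.6 and 14.0 in Tert HFD and 17.8 and 18.0 in TertCi HFD. Brip1 stood at 6.72 and 16.6 CPM in mCherry SD, 54.0 and 44.3 in mCherry HFD, 34.4 and 23.7 in Tert HFD and 32.5 and 47.0 in TertCi HFD. The replication members Dtl, Mcm6 and Brip1 rose by 3.39, 1.95 and 1.75, with the mCherry SD mice below all others. Atad2 stood at 26.9 and 29.0 CPM in mCherry SD, 83.0 and 72.4 in mCherry HFD, 62.6 and 48.2 in Tert HFD and 42.0 and 55.6 in TertCi HFD, and rose by 1.33 (adjusted p = 0.00481) with diet. Atad2 was lower in TertCi HFD, at -0.58 (adjusted p = 0.0485), as was Kif20b, at -0.93 (adjusted p = 0.0481). In Tert HFD, Cenpf was lower, at -1.46 (adjusted p = 0.04) and Mcm10 at -1.62 (adjusted p = 0.0293). Of 8 fits that each left out a mouse, 0 called Cenpf and 3 called Mcm10 in Tert HFD, and 1 each called Atad2 and Kif20b in TertCi HFD. Kif20b stood at 3.36 and 4.15 CPM in mCherry SD, 15 and 15.3 in mCherry HFD, 15.3 and 10.5 in Tert HFD and 7.43 and 6.84 in TertCi HFD. Cenpf stood at 0 and 1.38 CPM in mCherry SD, 8.37 and 8.77 in mCherry HFD, 3.5 and 1.40 in Tert HFD and 3.61 and 5.99 in TertCi HFD. Mcm10 stood at 6.72 and 4.15 CPM in mCherry SD, 14.6 and 9.90 in mCherry HFD, 5.10 and 0.698 in Tert HFD and 5.94 and 7.70 in TertCi HFD. For Cenpf and Mcm10 the lowest value on high-fat diet was that of Tert HFD mouse rep136, and for Kif20b both TertCi HFD mice were lowest of those on high-fat diet. Knl1, Smc4, Rad54b, Kntc1, Brca2 and Lig1 also rose with diet, by 0.84 (Smc4) to 2.48 (Knl1). Pola1 stood at 232 and 196 CPM in mCherry SD, 240.3 and 205 in mCherry HFD, 242 and 209 in Tert HFD and 217 and 285 in TertCi HFD. Anln stood at 20.2 and 16.6 CPM in mCherry SD, 22.7 and 21.4 in mCherry HFD, 21.7 and 11.2 in Tert HFD and 18.0 and 29.1 in TertCi HFD. For Pola1 all groups overlapped, and for Anln the mCherry HFD mice lay narrowly above the mCherry SD mice and within the range of the TertCi HFD mice.

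Progenitor-like nuclei, marked by Pdgfra and collagens, held 16 members that passed the filter on low counts. With diet 2 rose (Dtl and Top2a) and 1 was lower (Pola1), where 12.7% of the 11817 genes tested were called in either direction. Top2a stood at 0 and 0 CPM in mCherry SD, 8.15 and 9.63 in mCherry HFD, 6.26 and 0 in Tert HFD and 1.26 and 0 in TertCi HFD, at least 4.64-fold higher in mCherry HFD than in mCherry SD. Dtl stood at 0 and 0 CPM in mCherry SD, 7.68 and 7.71 in mCherry HFD, 3.34 and 6.64 in Tert HFD and 1.67 and 3.08 in TertCi HFD, at least 4.25-fold higher. Pola1 stood at 128.6 and 130.1 CPM in mCherry SD, 95.6 and 101 in mCherry HFD, 109 and 102 in Tert HFD and 118 and 105 in TertCi HFD, and was lower in mCherry HFD, at -0.61 ± 0.16 (SE, adjusted p = 0.0289) with edgeR. With library totals in place of TMM scaling Pola1 did not pass, and 5 members were higher. Over 14 fits the log2 fold change of Pola1 ran from -0.69 to -0.39. No member was called in Tert HFD by edgeR or DESeq2, and 0 had an unadjusted p under 0.05, where 10.1% of genes were called in either direction. In TertCi HFD, Top2a was lower, at -3.02, Bub1b at -2.45 and Brip1 at -1.04, where 12.9% of genes were called lower. Bub1b stood at 1.63 and 2.87 CPM in mCherry SD, 6.85 and 6.42 in mCherry HFD, 3.13 and 1.33 in Tert HFD and 1.47 and 0 in TertCi HFD. Brip1 stood at 9.77 and 7.66 CPM in mCherry SD, 14.2 and 14.8 in mCherry HFD, 12.1 and 13.3 in Tert HFD and 6.07 and 6.16 in TertCi HFD. Both TertCi HFD mice were lowest of all 8 for Brip1, and both mCherry HFD mice highest. DESeq2 called 0 members in progenitor-like nuclei, and the diet count was 0 without any of the 4 mice compared, rep144, rep146, rep128 or rep129. The TertCi HFD count was 0 without either mCherry HFD mouse or without TertCi HFD mouse rep140, and 1 without TertCi HFD mouse rep138. Cycling progenitor-like nuclei were 14 of 1137 and 3 of 430 in mCherry HFD, 8 of 692 and 2 of 343 in Tert HFD, 2 of 1128 and 0 of 350 in TertCi HFD and 0 of 183 and 0 of 229 in mCherry SD. The summed macrophage markers in this class were 1184 and 956 CPM in mCherry SD, 1420 and 1893 in mCherry HFD, 1562 and 1335 in Tert HFD and 1199 and 973 in TertCi HFD, and their part was not tested.

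Endothelial-like nuclei could be compared only on high-fat diet, because mCherry SD mouse rep144 had 8 of them. No member of the 16 tested was called in Tert HFD by edgeR, with 1 at an unadjusted p under 0.05, where 8.81% of 7422 genes were called in either direction, and 4 were lower in TertCi HFD, where 9.92% of genes were lower. Brca1 stood at 42.7 and 27.4 CPM in mCherry HFD, 24.6 and 16.2 in Tert HFD and 5.38 and 0 in TertCi HFD, and was lower in TertCi HFD, at -3.09 ± 0.69 (SE, adjusted p = 0.00606) with edgeR. Mki67, Mcm6 and Atad2 were lower, at -2.73, -1.74 and -1.52. The count of 4 fell to 0 without mCherry HFD mouse rep128 or with DESeq2, and to 2 without mCherry HFD mouse rep129, Tert HFD mouse rep134 or TertCi HFD mouse rep138. It was 7 without mCherry SD mouse rep146 and 9 without Tert HFD mouse rep136. Cycling endothelial-like nuclei were 13 of 206 and 4 of 75 in mCherry HFD, 10 of 147 and 1 of 113 in Tert HFD, and 5 of 220 and 0 of 55 in TertCi HFD, so the Tert HFD pair spanned the mCherry HFD pair. The 10 endothelial markers summed to 4465 and 5524 CPM in this class in mCherry HFD, 6924 and 6909 in Tert HFD and 9391 and 7336 in TertCi HFD, higher where the called members were lower. The 17 macrophage markers summed to 9855 and 9025 CPM in mCherry HFD, 11524 and 7630 in Tert HFD and 6601 and 9070 in TertCi HFD, above the endothelial markers in all of these mice but TertCi HFD mouse rep138. The part of either list was not tested.

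Adipocyte-like nuclei are those of fat cells, which as mature cells do not divide. Of 35 members tested, 14 were higher with diet (12.5% of 14462 genes were), 1 was lower in Tert HFD (2.4% of genes were) and 7 were lower in TertCi HFD (8.79% of genes were). The diet count fell to 1 without mCherry HFD mouse rep128, 4 without mouse rep129, and 3 and 4 without mCherry SD mice rep144 and rep146. The TertCi HFD count fell to 0 and 1 without mCherry HFD mice rep128 and rep129, and 1 and 3 without TertCi HFD mice rep138 and rep140. The Tert HFD count fell to 0 without either mCherry HFD mouse. Cycling nuclei were 4 of 183 and 3 of 64 in mCherry HFD and 0 of 612, 1 of 844, 2 of 493, 5 of 946, 2 of 1777 and 0 of 529 in the other mice. Zwilch stood in this class at 3.44 and 6.17 CPM in mCherry SD, 90.7 and 81.5 in mCherry HFD, 15.3 and 7.16 in Tert HFD and 11.0 and 11.5 in TertCi HFD. In macrophage-like nuclei the same mCherry HFD mice had 27.1 and 19.3 CPM of Zwilch, and no other mouse reached the mCherry HFD values in adipocyte-like nuclei. In the free RNA of the same 2 mice Zwilch stood at 16.1 and 22.5 CPM, below its level in their adipocyte-like nuclei. The source of the Zwilch RNA in these nuclei was not tested. Zwilch rose by 3.81 ± 0.34 (SE, adjusted p = 0.000384) with diet and was lower, at -2.66 ± 0.32 (SE, adjusted p = 0.0117) in Tert HFD and -2.52 ± 0.31 (SE, adjusted p = 0.0032) in TertCi HFD (edgeR). Top2a stood at 1.03 and 0.514 CPM in mCherry SD, 12.4 and 15.8 in mCherry HFD, 4.78 and 3.18 in Tert HFD and 1.24 and 1.64 in TertCi HFD in these nuclei, and rose by 3.91. The summed macrophage markers in adipocyte-like nuclei were 3926 and 3608 CPM in mCherry SD, 4250 and 4756 in mCherry HFD, 4607 and 2830 in Tert HFD and 2341 and 2905 in TertCi HFD, with no marker at 0 in every mouse, and their part was not tested.

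Within cycling nuclei, mitosis members gave 41.4% of the member UMIs, against 31.6% in nuclei that did not cycle. The count of these same members sets which nuclei are called cycling, so nothing is read from this difference. Nuclei with more mitosis than replication members made up 30.1% of the 554 cycling nuclei of mCherry HFD, 22.7% of the 132 of Tert HFD and 20.0% of the 80 of TertCi HFD, while mCherry SD had only 17 cycling nuclei (41.2%). Per mouse these were 29.7 and 31.6% in mCherry HFD, 23.9 and 20.5% in Tert HFD and 18.2 and 24% in TertCi HFD. By this count the mCherry HFD pair lay above both others, which overlapped. By member UMIs it did not, with a mitosis share of 42.41 and 42.34% in mCherry HFD, 42.38 and 36.1% in Tert HFD and 35.4 and 37.2% in TertCi HFD, and no test was made on so few nuclei.

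Other genes of the cell cycle that are not members were listed by process, and 75 genes of mitosis, 45 of replication, 17 of G1 and 7 inhibitors were tested in all nuclei. This list too was chosen with earlier results of these data known. Of these 99 rose and 4 fell with diet, where 22.3% of all genes rose. In Tert HFD 27 were lower and 3 higher, and in TertCi HFD 79 were lower and 4 higher, where 10.9 and 19.4% of all genes were lower. Mitosis genes made up 59 of the 99 and replication genes 30. Gas2l3, a protein of the late spindle, rose by 3.27 (adjusted p = 3.39e-05) with diet and was lower, at -1.34 (adjusted p = 0.00184) in Tert HFD and -2.22 (adjusted p = 0.000127) in TertCi HFD (edgeR). Cdt1, which loads the helicase on DNA, was lower, at -2.39 and -3.49, Pcna, the sliding clamp, at -1.12 and -1.80, and H2az1, a histone variant, at -1.46 and -2.02. Neil3 and Diaph3 rose with diet by 2.99 and 1.33. Cdk6, a kinase of the G1 phase, rose by 1.33 with diet and was lower, at -0.73 in Tert HFD and -0.97 in TertCi HFD. Of the 17 genes of G1, 7 rose and 3 fell with diet, where 22.3% of all genes rose and 3899 of 21101 fell, so the 3 lie near the background. Rb1, the retinoblastoma protein that holds E2F in check, was among these 3, at -0.44 (adjusted p = 0.0249) with diet, and was higher by 0.55 (adjusted p = 0.0219) in Tert HFD and 0.63 (adjusted p = 0.00783) in TertCi HFD.

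The inhibitors of cyclin-dependent kinases did not follow a single direction. With diet 3 of 7 tested rose and 1 fell, where 22.3% of all genes rose, so nothing is read from these counts. Cdkn1a rose by 2.36 ± 0.38 (SE, adjusted p = 0.00282), and its values against mCherry HFD of -0.80 (adjusted p = 0.133) in Tert HFD and -0.80 (adjusted p = 0.111) in TertCi HFD did not pass. Cdkn2b rose by 1.49 with diet and was lower, at -1.34 and -1.23, whereas Cdkn2c was lower with diet, at -1.69, and higher by 2.12 and 1.86. In macrophage-like nuclei 123 of the listed genes were tested, and 31 rose and 1 fell with diet, with 12 lower and 1 higher in Tert HFD and 22 lower and 2 higher in TertCi HFD. Of all genes tested in this class 11.4% rose with diet, 11.9% were lower in Tert HFD and 15.7% in TertCi HFD, and both lower counts lay near this background. Orc1, part of the complex that marks replication origins, was lower there, at -2.42 in Tert HFD and -2.32 in TertCi HFD, Cdt1 at -1.94 and -3.67, and H2az1 at -1.52 and -1.58. Rb1 moved the other way there too, at -0.70 with diet, 0.61 in Tert HFD and 0.68 in TertCi HFD.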

How the data were processed

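The deposited values were UMI counts per gene and barcode, not normalised. Cell Ranger made the counts for the authors, in version 7.1.0 per the file headers and 5.0.1 per the submitters' processing notes, which also name bcl2fastq 2.20.0 and the build mm39. Whether intronic reads were counted is not given in the sources used here, so levels of single genes were not compared with each other. The same limit holds where sums of marker lists stand side by side. The 46 members and all gene lists were chosen with earlier results of these data known.

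Nuclei were barcodes above a UMI limit set per library, namely 0.1 of the 99th percentile among its 5000 largest barcodes but never below 500. They also needed 300 or more detected genes, and their mitochondrial share could not exceed 5%. Doublets were removed by the highest scrublet scores at 0.8% per 1000 nuclei, because the automatic threshold marked 0 to 0.154%. Nuclei were clustered with scanpy 1.11.5 (Python 3.11.15; 2000 variable genes without the listed cell cycle genes, 30 components, 15 neighbours, Leiden resolution 1.0) and named by markers with at least 3 raised. For shares, nuclei were thinned to 1000 UMIs. Counts summed per mouse were tested with edgeR 4.0.16 (R 4.3.3; quasi-likelihood, TMM, filterByExpr, all 4 groups in 1 fit, at least 25 nuclei per mouse). DESeq2 1.42.0, other scalings and filters, doublets kept and each mouse left out were tried. Tested on simulated data with 100 genes changed by each size in the diet comparison, the fit over 21101 genes recovered 6% of log2 changes of 1 and 48% of log2 changes of 2 in all nuclei, and over 13506 genes 15% and 66% in macrophage-like nuclei, with 8 and 10 false calls. In the real diet comparison 8595 genes were called in all nuclei and 2738 in macrophage-like nuclei. The adjusted threshold is then less strict, so these shares do not give the recovery in the data. Named in full were the 2 members with most UMIs per role and up to 12 called members per comparison by adjusted p, and up to 5 called other genes, of which 1 is not reported here. Cdkn1a, Cdkn2b, Cdkn2c and Rb1 were chosen after their values were seen.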

Additional observations from a re-analysis of the deposited data

How the results depend on the processing

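No paired analysis was possible because the replicate numbers in the labels differ between the groups. Over 338 alternatives of 25 results no difference changed direction. Most of these results are counts of called members, though, which have no direction, and several of them fell to 0. The cause of a move was not tested unless the setting itself fixes it. Library totals in place of TMM, the settings of the share from the highest threshold on, and all alternatives in adipocyte-like and endothelial-like nuclei were chosen after seeing the data. In all nuclei, leaving out a mouse gave 34 to 40 members for diet, 0 to 15 for Tert HFD and 13 to 37 for TertCi HFD. In macrophage-like nuclei it gave 3 to 23, 0 to 7 and 0 to 7, and in progenitor-like nuclei 0 to 4 for diet and 0 to 4 for TertCi HFD. Without a filter on low counts 1 member was called between Tert HFD and TertCi HFD in all nuclei, and 6 (diet) and 10 (TertCi HFD) in progenitor-like nuclei, where library totals gave 5 for diet and DESeq2 gave 0 and 0. In macrophage-like nuclei DESeq2 gave 13, 1 and 2. In adipocyte-like nuclei leaving out a mouse gave 1 to 15, 0 to 1 and 0 to 10, DESeq2 8 for diet and 3 for TertCi HFD, no filter 2 for Tert HFD, and doublets kept 12 and library totals 14 for TertCi HFD. In endothelial-like nuclei for TertCi HFD leaving out a mouse gave 0 to 9, DESeq2 0 and no filter 10. The difference in cycling share in all nuclei, in percentage points for diet, Tert HFD and TertCi HFD, was 7.1, -4.73 and -6.00 with at least 3 members, 3.34, -2.12 and -2.71 with at least 5, 18.3, -13.0 and -17.8 without thinning, 8.75, -5.99 and -7.40 at 2000 UMIs, 5.86, -4.61 and -5.38 above the highest threshold, 3.14, -2.17 and -2.64 without Pola1, Ezh2, Smc4 and Atad2, and 3.42, -2.13 and -2.50 with each barcode of at least 1000 UMIs. Leaving out a mouse gave 4.43 to 5.33, -3.78 to -2.65 and -4.51 to -3.61. In macrophage-like nuclei it was 8.97 for diet with at least 3 members, 22.4, -13.3 and -14.9 without thinning, 11.2, -6.47 and -5.87 at 2000 UMIs, 9.63 and -9.23 for diet and Tert HFD above the highest threshold (where mCherry SD mouse rep144 kept 5 such nuclei and Tert HFD mouse rep136 kept 11), and 4.77 for diet without those 4 members. Leaving out a mouse gave 5.55 to 7.71, -4.75 to -2.59 and -4.33 to -0.92. The number of nuclei limits the precision in mCherry SD macrophage-like nuclei, of which there were 89 and 154.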
